A study of Mus musculus with 4 samples.

Results

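The insulin and IGF (insulin-like growth factor) signalling genes described here are 10 genes of the 19938 measured: the docking proteins Irs1 and Irs2, the receptors Insr and Igf1r, the ligands Igf1 and Igf2, and the IGF-binding proteins Igfbp2, Igfbp3, Igfbp4 and Igfbp5. They were found by gene symbol and are covered by 12 features, the array's reporting units, of 35556. The set was chosen by measured values in so far as Irs1 had already appeared among the genes most different between citalopram and control on these same arrays. Each gene is represented by its brightest feature, judged by its mean value, and the further features of Irs1 and Insr are given beside it. The citalopram differences below are therefore a description and carry no test.

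The samples were MC3T3-E1 cells, an established line of pre-osteoblasts from the calvaria of C57BL/6 mice, in medium with 1% fetal bovine serum, which itself carries IGFs. Of the 4 groups, 2 were untreated controls, at day 3 and day 7, and 2 received citalopram, a selective serotonin reuptake inhibitor (SSRI), at 0.0001 mol per litre (100 µM) for 3 or 7 days. The study asked how exposure to the drug affects osteogenesis. Each group is 1 array from 1 cell line, with 3 wells per treatment in a plate, and the sources used here do not say whether wells were pooled or name a vehicle for the controls.

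Insulin and the IGFs act through the insulin receptor and the IGF1 receptor, tyrosine kinases that phosphorylate the IRS docking proteins. Phosphorylated IRS recruits PI3-kinase, which activates AKT; AKT promotes growth through mTOR and holds FOXO transcription factors out of the nucleus, while a parallel arm runs through RAS and MAP kinases. IGF-binding proteins hold the IGFs and control their access to receptors. In bone, osteoblasts make and respond to IGF1, and mice without Irs1 or without Irs2 have low bone mass.

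Values are log2 expression values. Array medians over all features ran from 6.50 to 6.66, and pairs of arrays correlated with r from 0.986 to 0.995 over features, which are not independent replicates. A gene counted as above the floor when the brighter of the arrays compared reached that array's 40th percentile of genes (5.95 to 6.01), and 8 of the 10 members did so; Igfbp2 and Igfbp3 lay below it on all 4 arrays. Of 11 osteoblast markers measured, 9 were above the floor on at least 1 array, with Sparc between 13.8 and 14.1 and Alpl, alkaline phosphatase, only between 5.93 and 6.09; Ibsp and Phex were below it. Of 7 markers each, 1 endothelial, 2 macrophage, 2 adipocyte, 4 myogenic and 4 chondrocyte markers were above the floor on at least 1 array. Some of them stayed near the floor, such as Pparg (5.90 to 6.18), Myod1 (5.85 to 6.13) and Pax7 (5.91 to 6.09). Others lay well above it, such as Sox9 (10.5 to 11.0). In such bulk RNA, fewer cells of a type and less RNA per cell cannot be told apart.

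Irs1, insulin receptor substrate 1, was the member with the largest difference between citalopram and control at each day. Its brightest feature (10356084) read 10.84 at day 3 and 11.06 at day 7 in control, and 11.50 and then 12.21 with citalopram. Both citalopram arrays were above both control arrays. The difference was 0.66 at day 3 (1.58-fold) and 1.15 at day 7 (2.23-fold), ranks 37 of 12196 and 2 of 12167 genes from the highest. The middle 95% of genes lay between -0.33 and 0.40 at day 3 and between -0.44 and 0.42 at day 7. With 1 array per group the error of these differences cannot be estimated.

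The second Irs1 feature (10347792), annotated to another transcript record of the gene, was near the floor. It read 6.02 (control) and 6.26 (citalopram) at day 3, and 5.84 and 6.83 at day 7. Its citalopram difference was 0.24 at day 3, short of 1.5-fold (0.58 on the log2 scale), and 0.99 at day 7 (1.98-fold). The features thus had the same order of citalopram above control at each day, but only the brightest passed 1.5-fold at day 3, and the mean of the pair gave 0.45 there. In control, from day 3 to day 7, they had opposite signs, 0.22 for the brightest and -0.18 for the second.

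Irs2, the other widely expressed IRS docking protein, had the same order of arrays at smaller size. It read 8.58 (control) and 8.83 (citalopram) at day 3, and 8.73 and 9.24 at day 7. The differences of 0.26 (1.20-fold) and 0.51 (1.43-fold) stayed under 1.5-fold at each day. The day 7 value lay outside the middle 95% of genes and the day 3 value inside it. Among 11952 genes above the floor at both days, 48 had a larger difference than Irs2 at both, and 5, Irs1 among them, were at least 1.5-fold higher at both. Proliferation markers moved the other way on the same arrays. With citalopram, 9 of 11 were lower at day 3 (median -0.19) and 11 of 11 at day 7 (median -0.55). Of these markers, 1 and 4 were at least 1.5-fold lower, beside 0.303% and 0.945% of all genes above the floor. Of all genes above the floor, 57.7% and 51.3% were above 0, with medians of 0.03 and 0.01. Summed linear values of the proliferation markers were highest in the day 3 control array (40951) and lowest in the day 7 citalopram array (30727). They were 36593 with citalopram at day 3 and 40805 in control at day 7. The part of the proliferation markers in the Irs1 and Irs2 differences was not tested.

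**Figure D1:**
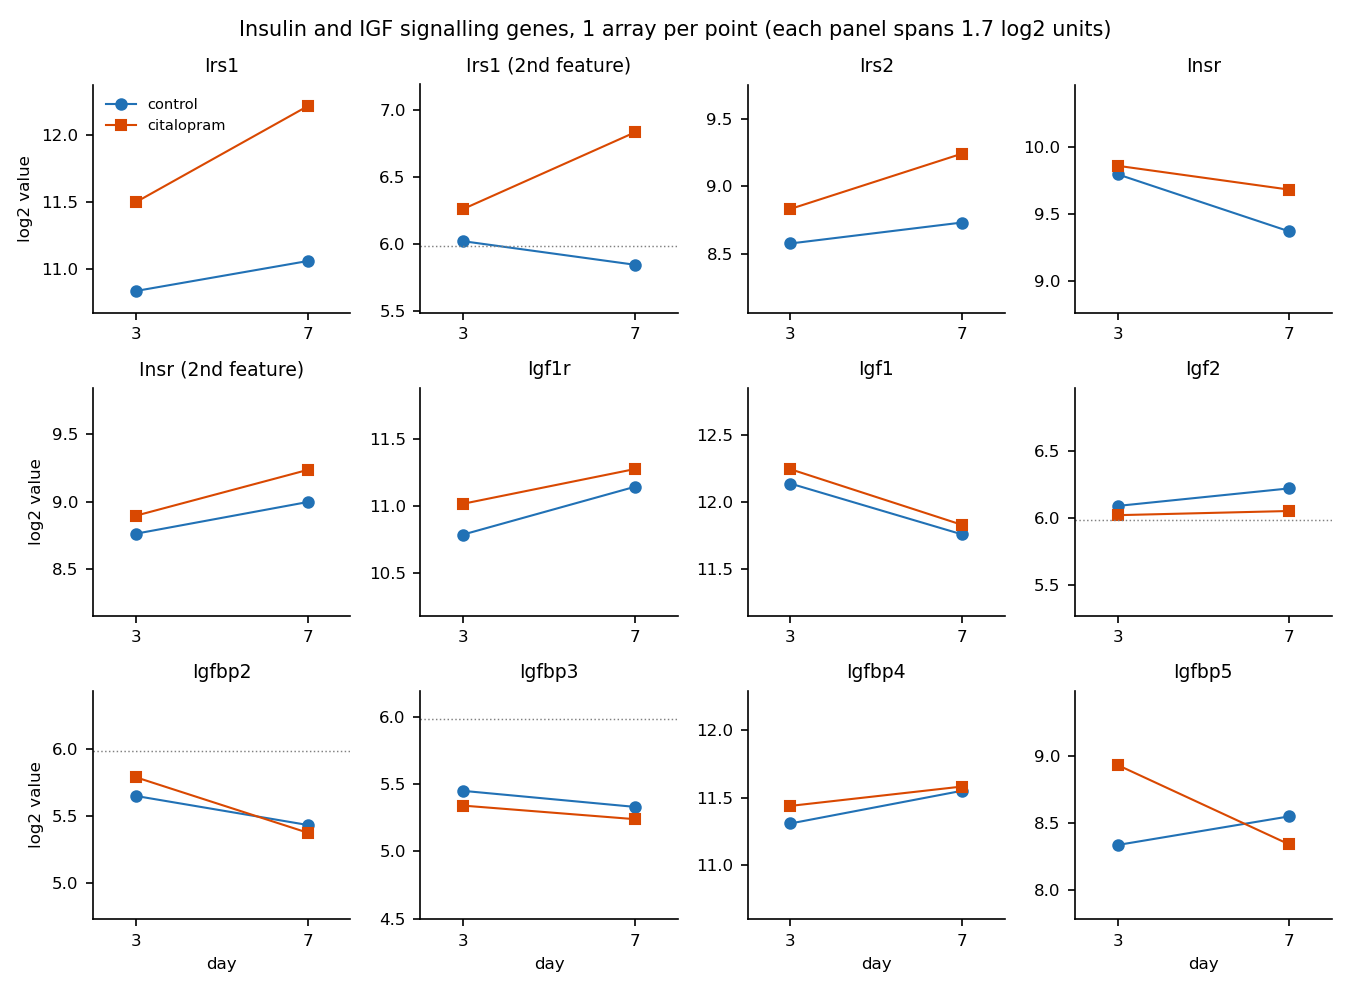
Log2 values of the 12 features of the 10 genes (vertical axis, each panel spanning the same number of log2 units around its own centre) at day 3 and day 7 (horizontal axis), with circles for control and squares for citalopram, 1 array per point and no error bars. A dotted line marks the mean floor where it falls within a panel. Citalopram lies above control at both days for Irs1, Irs2, Insr, Igf1r, Igf1 and Igfbp4. The lines cross for Igfbp5 and, below the floor, for Igfbp2.

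The promoter windows of the IRS pair are shown because, by the brightest features, Irs1 and Irs2 were the members with both citalopram arrays above both control arrays. Windows from RefSeq (build GRCm38.p6, 250 bases before to 50 after a transcript start) were found for 9 of the 10 members, 13 windows in all; Insr had none in the table. Capitals mark GTCACGTG, an E-box with 2 more letters on its 5′ side, on either strand. The Irs1 window is chr1:82291390-82291689 on the minus strand, and the Irs2 window is chr8:11008880-11009179 on the minus strand. The Igfbp5 window is chr1:72874816-72875115 on the minus strand. It is shown because Igfbp5 was the member above the floor with opposite citalopram differences at the days.

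Irs1: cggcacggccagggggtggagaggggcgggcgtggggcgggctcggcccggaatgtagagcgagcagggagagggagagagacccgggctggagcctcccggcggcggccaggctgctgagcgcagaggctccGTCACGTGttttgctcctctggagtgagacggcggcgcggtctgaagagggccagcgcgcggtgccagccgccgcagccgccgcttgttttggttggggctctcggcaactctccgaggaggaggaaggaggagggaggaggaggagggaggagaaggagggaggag

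Irs2: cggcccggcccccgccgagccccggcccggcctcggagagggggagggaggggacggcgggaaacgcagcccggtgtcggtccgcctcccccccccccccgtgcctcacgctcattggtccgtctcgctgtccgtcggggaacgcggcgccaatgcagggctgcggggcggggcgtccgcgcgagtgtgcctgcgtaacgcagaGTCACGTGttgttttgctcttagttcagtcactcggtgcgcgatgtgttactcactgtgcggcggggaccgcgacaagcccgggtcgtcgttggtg

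Igfbp5: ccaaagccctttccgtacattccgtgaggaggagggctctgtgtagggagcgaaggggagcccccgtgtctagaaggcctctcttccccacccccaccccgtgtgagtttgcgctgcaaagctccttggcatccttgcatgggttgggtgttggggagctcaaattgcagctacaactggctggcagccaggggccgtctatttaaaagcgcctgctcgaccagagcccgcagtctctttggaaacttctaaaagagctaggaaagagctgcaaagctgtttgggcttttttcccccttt

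GTCACGTG was present once in each IRS window and in no other member's window, and in 2.25% of all 32851 windows of this length. In Irs1 the shorter E-box core CACGTG within it began 115 bases before the start, and in Irs2 44 bases before it. The longest runs of letters the IRS windows shared were 2 of 10 bases, gtcacgtgtt, which holds this match, and tgttttgctc. CACGTG alone also occurred in 1 Igfbp2 window and in 7.15% of all windows. The antioxidant-response core TGACNNNGC (12.4% of all windows) matched in both IRS windows on the reverse strand, overlapping the E-box, and in windows of Igf2 and Igfbp2. The AP-1 motif TGANTCA (7.81%) matched in windows of Igf1 and Igfbp2, and neither the cyclic-AMP element TGACGTCA (1.79%) nor the FOXO motif GTAAACA (3.65%) occurred in any member's window. Motifs were searched on both strands and picked after the values were known, GTCACGTG after the windows had been read. A match is a match of letters and not a measured binding site. The shares were taken over all windows, which were not matched to the members for G and C or CpG content. The IRS windows were rich in G and C, 71.3% for Irs1 and 72.0% for Irs2 against a median of 52.7% over all windows, with 28 and 41 CpG dinucleotides against a median of 7. The trait was shared by other members: the windows of Igf1r, Igfbp3 and Igfbp4 held 76.0%, 71.7% and 71.3% G and C, with 48, 37 and 27 CpG dinucleotides.

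The receptors differed less. Insr, the insulin receptor, read on its brightest feature (10576692) 9.79 (control) and 9.86 (citalopram) at day 3, and 9.37 and 9.68 at day 7. The second Insr feature (10576696) read 8.76 and 8.89 at day 3, and 9.0 and 9.24 at day 7. For citalopram the features had the same sign, 0.06 and 0.13 at day 3 and 0.31 and 0.24 at day 7. For day they had opposite signs: in control -0.43 on the brightest and 0.24 on the second, and with citalopram -0.18 and 0.34. No direction over time can therefore be given for Insr. Igf1r, the IGF1 receptor, read 10.79 and 11.02 at day 3, and 11.14 and 11.28 at day 7, in control and citalopram. It was higher with citalopram by 0.23 and then 0.13, inside the middle 95% of genes each time, and both day 7 arrays were above both day 3 arrays.

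Of the ligands, Igf1, the main IGF of osteoblasts, was ordered by day and not by drug. It read 12.14 (control) and 12.25 (citalopram) at day 3, and 11.76 and 11.83 at day 7. The citalopram differences were 0.11 and 0.07, and the day 7 arrays were lower by 0.38 in control and 0.41 with citalopram. Igf2, an imprinted fetal growth factor, stayed near the floor, at 6.09 and 6.02 at day 3 and 6.22 and 6.05 at day 7. It was the only member above the floor that was lower with citalopram at both days, by -0.07 and -0.17, differences inside the middle 95% of genes.

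Among the binding proteins, Igfbp5, which is abundant in bone matrix, gave opposite citalopram differences at the days. It read 8.34 (control) and 8.93 (citalopram) at day 3, and 8.55 and 8.34 at day 7. Citalopram at day 3 was the highest array, and the array with citalopram at day 7 was level with control at day 3. The difference was 0.60 at day 3 (1.51-fold), rank 56 of 12196 from the highest and just past 1.5-fold, and -0.21 at day 7. After cyclic loess it was 0.58 at day 3, just short of 1.5-fold. Whether the days differ was not tested, since an interaction term would leave no residual degree of freedom.

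Igfbp4, a binding protein that restrains IGF action until it is cleaved, read 11.31 and 11.44 at day 3, and 11.55 and 11.58 at day 7. Its citalopram differences of 0.13 and 0.03 were within the middle 95% of genes. Igfbp2 lay between 5.38 and 5.79 and Igfbp3, the main carrier of IGFs in blood, between 5.24 and 5.45, below the floor throughout. Their citalopram differences were 0.14 and -0.06 for Igfbp2 and -0.11 and -0.09 for Igfbp3, and values so near background carry little information on change.

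**Figure D2:**
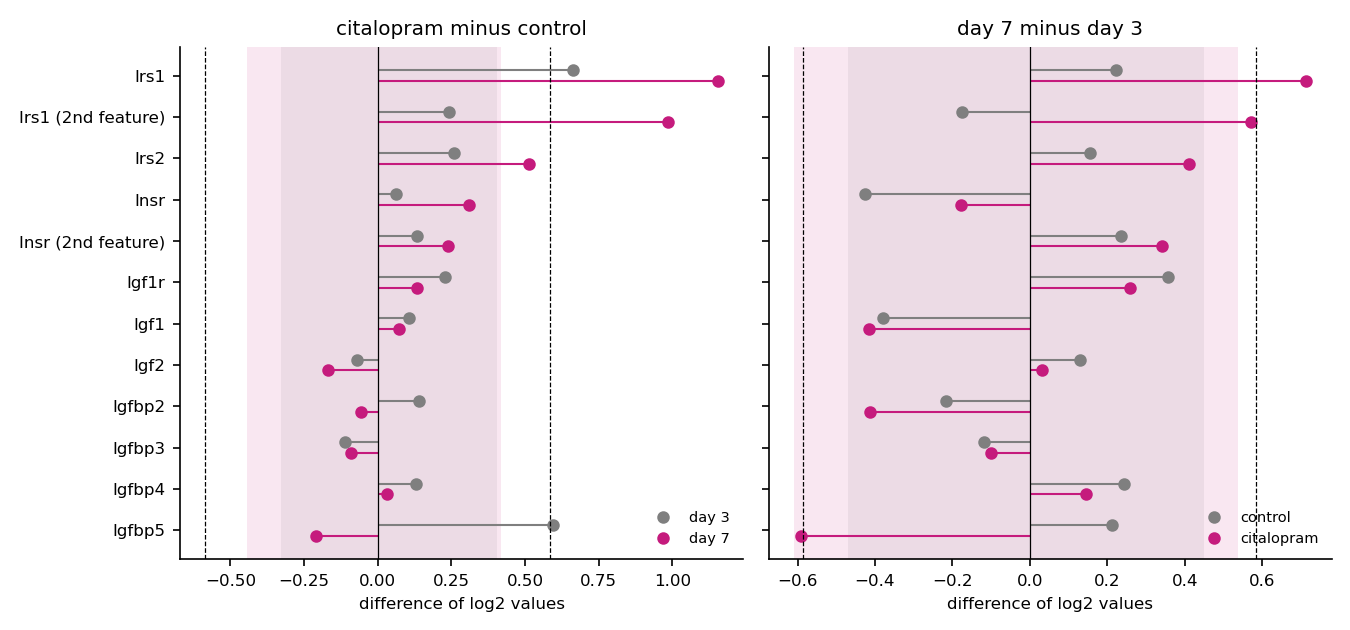
Differences of log2 values for the 12 features, citalopram minus control on the left (grey day 3, magenta day 7) and day 7 minus day 3 on the right (grey control, magenta citalopram), 1 array against 1. Shaded bands hold the middle 95% of genes above the floor in the comparison of the same colour, and dashed lines mark 1.5-fold. Irs1 extends past 1.5-fold at both days on its brightest feature, and Igfbp5 points in opposite directions.

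Of the 8 members above the floor, 2 (Irs1 and Igfbp5) were at least 1.5-fold higher with citalopram at day 3 and 0 were lower, where 0.50% of all genes above the floor were higher and 0.303% lower. At day 7, 1 (Irs1) was higher and 0 were lower, against 0.559% and 0.945% of all genes. Since Irs1 was chosen on this contrast, nothing is read from these counts. Of all genes past 1.5-fold at day 7, 37.2% were higher as deposited and 26.0% after quantile normalization. By sign alone, 7 of 8 were higher with citalopram at day 3 and 6 of 8 at day 7, where 57.7% and 51.3% of all genes were above 0. The median over all 10 members was 0.14 at day 3 and 0.05 at day 7, and that of all genes above the floor 0.03 and 0.01.

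**Figure D3:**
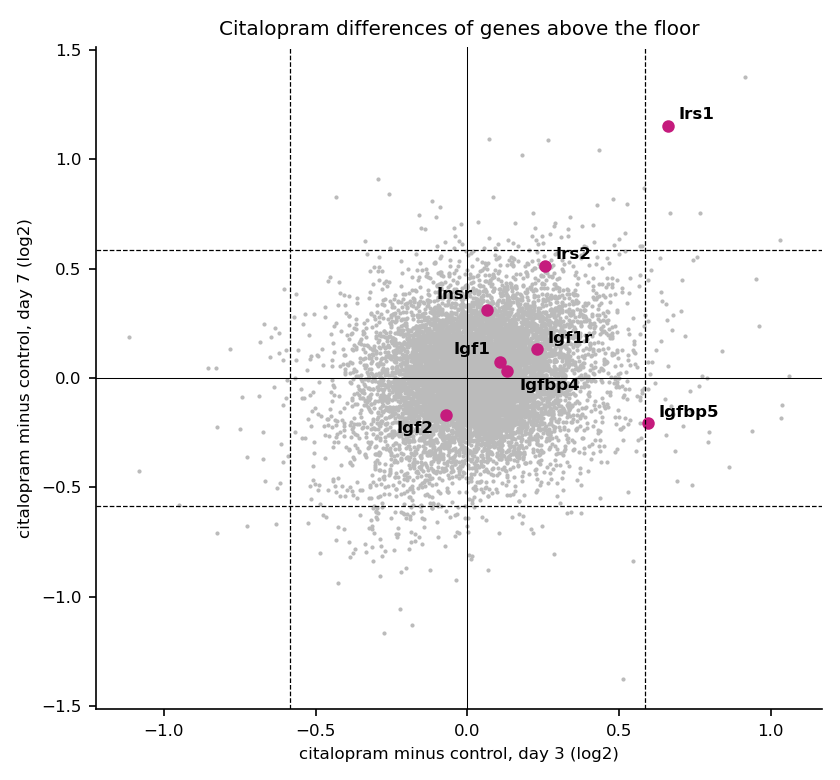
Citalopram minus control at day 3 (horizontal) and day 7 (vertical), on the log2 scale, for 11952 genes above the floor at both days (grey points) and the 8 members among them (labelled magenta points), 1 array against 1, with dashed lines at 1.5-fold. Irs1 lies in the upper right corner with few other genes (0.66 and 1.15), Irs2 at 0.26 and 0.51, and Igfbp5 on the right below 0 (0.60 and -0.21).

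Between day 3 and day 7 in control, 0 of the 8 members passed 1.5-fold in either direction, where 1.16% of all genes were higher and 1.13% lower. With citalopram, Irs1 on its brightest feature was 1.64-fold higher (0.71) and Igfbp5 1.51-fold lower (-0.59) at day 7, against 2.0% and 2.81% of all genes. The second Irs1 feature was higher by 0.57 (1.485-fold), just short of 1.5-fold. The share of higher genes among those past 1.5-fold was 50.7% in control and 41.6% with citalopram, and 40.2% and 25.7% after quantile normalization. The Irs1 and Igfbp5 values with citalopram use the same citalopram arrays as the drug comparisons above. Members above the floor other than Irs1 and Igfbp5 ranged from -0.43 (Insr, brightest feature) to 0.36 (Igf1r) in control. The second Insr feature was at 0.24 there. With citalopram these members ranged from -0.41 (Igf1) to 0.41 (Irs2). Igfbp2, below the floor, was also at -0.41 with citalopram.

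The day difference over both treatments was tested with limma across 12415 genes, with treatment as a second term, so that the treatments stand in for replicates of a day and 1 residual degree of freedom remains. At an adjusted p under 0.05, limma called 1.31% of genes higher and 1.49% lower at day 7 and 0 of the 8 members, of which 5 had an unadjusted p under 0.05, as did 20.1% of all genes tested. Igf1 came nearest, with a day difference of -0.40 (SE 0.10), lower at day 7 in both treatments, and limma's adjusted p of 0.0822 (0.0222 to 0.113 over the alternatives). Irs1 had 0.47 (SE 0.13) and 0.104 (0.00968 to 0.273), a value that holds the citalopram array on which it was chosen. Igf1r had 0.31 (SE 0.10) and 0.149 (0.0495 to 0.193). The remaining members had adjusted p-values from limma between 0.179 (Insr) and 0.727 (Igf2). These calls changed with some settings of scaling and floor. After quantile normalization limma called Irs1, Igf1 and Igf1r. After cyclic loess, or with a floor at the 60th percentile, it called Irs1 and Igf1. With median centring or with no floor it called 0 members. Nothing in the labels says that arrays came from separate culture experiments. For each gene, the 1 residual degree of freedom holds the change of its citalopram difference between the days. limma then drew that spread towards the spread over all genes tested. These p-values therefore do not measure spread between cultures, and the spread among these 4 arrays may be technical.

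The other genes of the pathway were taken from 8 lists, of 151 genes, of which 137 were measured. Of 118 above the floor at day 3, 1 was at least 1.5-fold higher with citalopram and 0 lower; of 118 at day 7, 4 were higher and 0 lower. The higher genes were 0.847% and 3.39% of the lists' genes, beside 0.50% and 0.559% of all genes, and 0.303% and 0.945% of all genes were lower. Their medians were 0.07 and 0.04, beside 0.03 and 0.01 for all genes. By sign alone, 70.3% of the lists' genes were above 0 at day 3 and 55.9% at day 7, beside 57.7% and 51.3% of all genes. The counts by list below are to be read beside these shares.

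In the list of IGF binding proteins and their proteases outside the members, 7 of 9 genes were higher at day 3 and 6 of 9 at day 7. These 9 include Igf2bp1 and Igf2bp3, which bind Igf2 messenger RNA, and Ide, the insulin-degrading enzyme. Pappa, the metalloprotease that cleaves Igfbp4, read 9.10 (control) and 9.85 (citalopram) at day 3, and 9.57 and 10.12 at day 7. Both citalopram arrays were above both controls, by 0.76 at day 3, past 1.5-fold, and 0.55 at day 7. Igfbp6, which prefers IGF2, read 9.54 and 9.96 at day 3, and 9.95 and 10.47 at day 7, differences of 0.42 and 0.52. Htra1, a secreted serine protease, was lower with citalopram, by -0.57 and -0.25. The list's median was 0.17 at day 3 and 0.10 at day 7.

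Next to the receptors and IRS proteins, 9 of 12 ligands, receptors and adaptors were higher at each day (medians 0.10 and 0.16), and 0 passed 1.5-fold. The docking protein gene Gab1 was higher by 0.29 and 0.32, Gab2 by 0.12 and 0.42 and Dok1 by 0.27 and 0.17. Ncam1, an adhesion molecule, was at 0.16 and -0.38.

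In the PI3K and AKT list, 7 of 16 were higher at day 3 and 8 of 16 at day 7 (medians -0.01 and 0.00). Pik3r1, the regulatory subunit through which IRS proteins bind PI3-kinase, read 11.13 (control) and 11.59 (citalopram) at day 3, and 11.47 and 11.92 at day 7. Its difference was 0.46 at each day, outside the middle 95% of genes and short of 1.5-fold. Tbc1d4, the AKT substrate that gates glucose transporter traffic, was higher by 0.22 and 0.50. Pfkfb2, an enzyme that sets the level of a glycolytic activator, was at 0.05 and then 0.59, past 1.5-fold at day 7, where control alone was low (8.14, 8.20 and 8.17 on the other three arrays and 7.58 in control at day 7).

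The mTOR list lay close to 0, with medians of 0.01 and -0.02 and 0 of 17 past 1.5-fold. Its 2 widest values at day 3 were Deptor, an mTOR inhibitor (0.40 and -0.10), and Akt1s1 (0.22 and -0.12). At day 7 they were Rictor, of mTOR complex 2 (0.01 and 0.22), and Rps6kb2 (0.00 and -0.15). In the RAS and MAPK list, 0 of 11 passed 1.5-fold, with medians of 0.08 and 0.05. Nf1, a RAS inhibitor, was at 0.20 and 0.21, Rps6ka3 at 0.14 and 0.24, Sos1 at 0.02 and 0.25, and Braf at 0.08 and 0.28.

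Of the negative regulators, 15 of 22 were higher at day 3 and 10 of 22 at day 7 (medians 0.06 and -0.02). Ptprf, a receptor phosphatase, was higher at both days, by 0.36 and 0.45. Of the tribbles pseudokinases, Trib1 was at 0.06 and 0.00, Trib2 at 0.54 and -0.19, and Trib3, an AKT inhibitor induced by stress, at -0.26 and 0.60. Trib3 read 8.03 (control) and 7.78 (citalopram) at day 3, and 8.08 and 8.67 at day 7, so that citalopram at day 7 stood above the other three arrays.

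FOXO factors and targets were higher in 15 of 19 at day 3 and 13 of 19 at day 7 (medians 0.14 and 0.11), and 4 and 6 were lower. Of all genes above the floor, 57.7% and 51.3% were higher. At day 7, Bcl6, a transcriptional repressor, was higher by 0.71 and Gadd45a, a growth arrest gene, by 0.63, both past 1.5-fold. At day 3 these were at 0.16 and 0.13, and the widest values were Pdk4, which restrains pyruvate oxidation (0.40, then 0.16), and catalase, Cat (0.37, then 0.04). Irs2 and Insr are also known FOXO targets. Of insulin-induced and growth-related genes, 11 of 13 were higher at day 3 and 7 of 13 at day 7 (medians 0.11 and 0.10), and 0 passed 1.5-fold. Hk2, hexokinase 2, was higher by 0.41 and 0.37, the nucleolin gene Ncl was at -0.14 and 0.31, and Odc1 at -0.29 and -0.09.

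**Figure D4:**
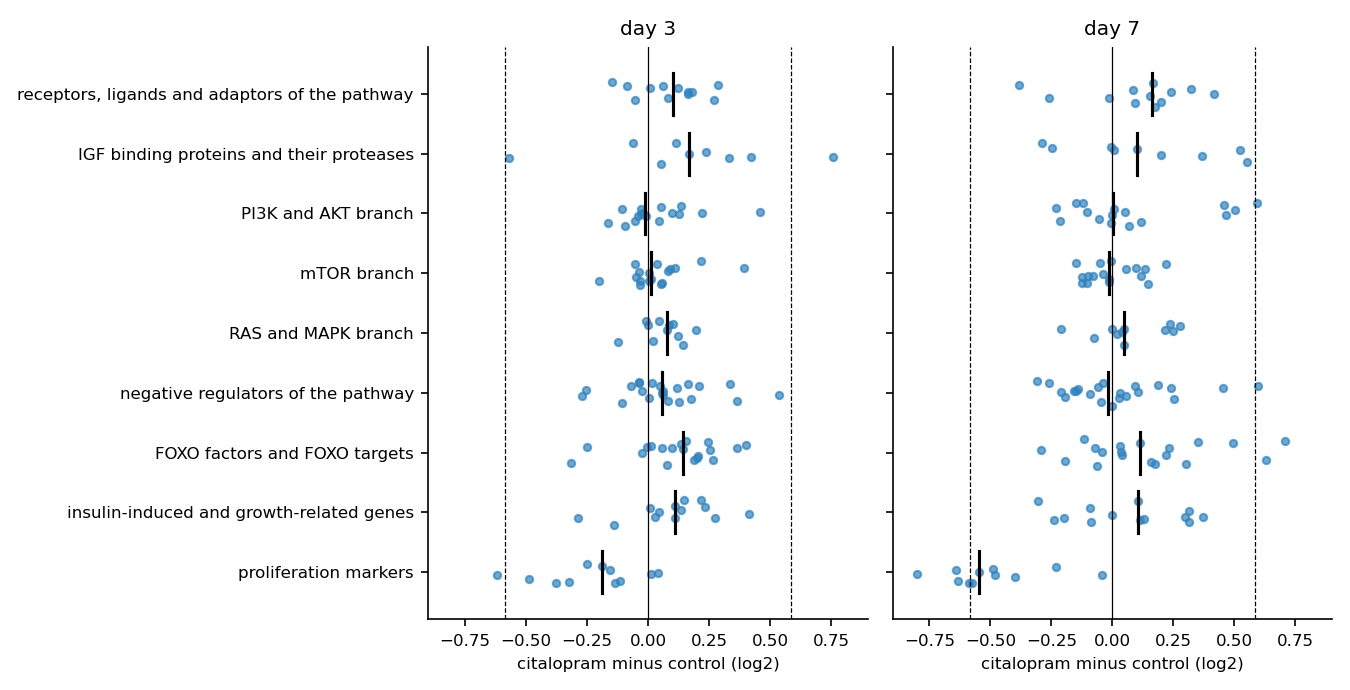
Citalopram minus control on the log2 scale (horizontal axis) at day 3 (left) and day 7 (right) for the genes of each list above the floor in that comparison, 1 point per gene with vertical jitter only, black bars at list medians and dashed lines at 1.5-fold. List medians of the pathway lie between -0.02 and 0.17, and that of the proliferation markers at -0.19 and -0.55.

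For the day effect, limma called 5 of the 119 genes of these 8 lists above the floor, 1 higher and 4 lower at day 7, where 1.31% of all genes were called higher and 1.49% lower. Txnip, a FOXO target that restrains glucose uptake, rose by 0.50 (SE 0.10, limma's adjusted p 0.048). Vegfa, an angiogenic growth factor, fell (-0.68, SE 0.10, adjusted p 0.016), as did Adam12, a protease of IGF-binding proteins (-0.66, SE 0.11, 0.020), Dusp6, a MAP kinase phosphatase (-0.62, SE 0.11, 0.028), and Rasa1, a RAS inhibitor (-0.49, SE 0.10, 0.048).

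Over the 4 arrays, likeness to Irs1 was measured as the Euclidean distance between log2 values centred on each gene's mean, among 11556 genes. The nearest was Rtl3, a retrotransposon-derived gene, at a distance of 0.19, followed by Ptgfr, the prostaglandin F receptor (0.33), Gstm1, a glutathione transferase (0.36), Cacna1g, a T-type calcium channel (0.36), and Rspo2, a Wnt agonist (0.38). In each of these the citalopram array was above the control of the same day, by 0.43 to 0.77 at day 3 and by 0.66 to 1.04 at day 7. The choice by nearness to Irs1 fixed that order in advance. Of the other members, Irs2 was nearest, at 0.57 and rank 58, and then Igf1r, at 0.80 and rank 734. With 4 arrays, many genes can share such an order, and the distances are a description.

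**Figure D5:**
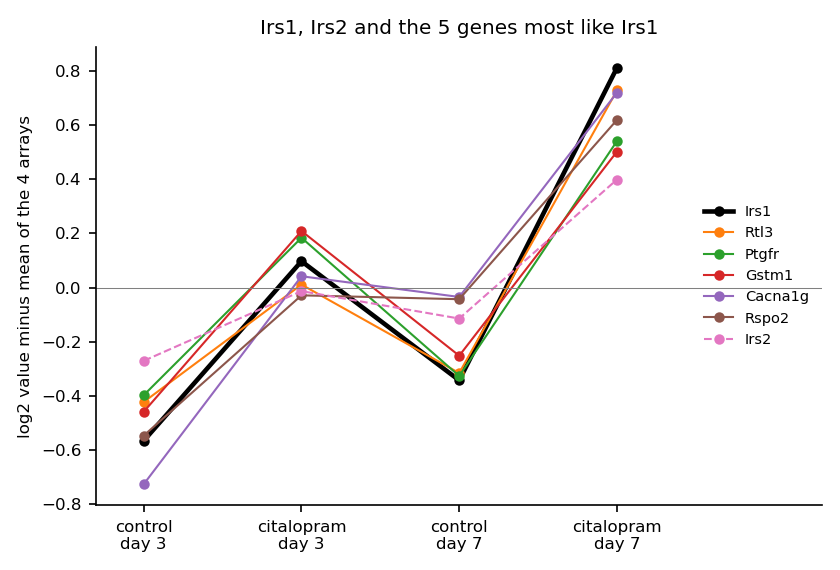
Log2 values minus each gene's mean over the 4 arrays (vertical axis) in the 4 groups (horizontal axis), 1 array per point, for Irs1 (thick black line), the 5 nearest genes by distance (thin lines) and Irs2 (dashed). All 7 genes have their highest value with citalopram at day 7 and their lowest in control at day 3.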

How the data were processed

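Total RNA (250 ng) from each of the 4 groups was labelled with biotin and hybridised to 1 Affymetrix array, per the labels' protocols. The authors deposited log2 values, processed in Partek per the submitters' processing notes (no version given). No source used here states the log base, which is inferred from the range of 3.90 to 15.5, or how background, normalization and probe sets were handled. The number of arrays limits the precision.

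Genes were named from features with 1 symbol, and each gene took its brightest feature over the 4 arrays. All 204 symbols of members and lists found on the array matched a RefSeq table (GRCm38.p6) by Entrez number, with 0 differing; the other listed genes were not analysed here. Differences of log2 values were taken between groups, counting genes at 1.5-fold. limma 3.58.1 in R 4.3.3 (lmFit, eBayes, two-sided, Benjamini-Hochberg over all genes above the floor) tested day with treatment as a covariate; the code was tested on simulated data. Python 3.11.15, pandas 2.3.3 and numpy 2.4.6 did the rest. Members and lists were chosen with earlier results of these data known. Named were all members, list genes past 1.5-fold or among the 2 widest per list at a day for citalopram, list genes called for day, and the 5 genes most like Irs1; proliferation and cell type markers are given as counts, with exceptions picked after their values were seen. Alternatives were other scalings, feature averaging, floors, a 2-fold threshold and an eBayes trend.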

Additional observations from a re-analysis of the deposited data

Results flagged for a closer look

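Igfbp5 differed between the days in the direction of its citalopram difference, 0.60 at day 3 and -0.21 at day 7, a change of -0.80 from day 3 to day 7. Trib3 had the opposite course, -0.26 at day 3 and 0.60 at day 7, a change of 0.85. Each rests on 1 array against 1 at each day, and the difference between the days was not tested.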

How the results depend on the processing

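Of the 40 differences of the members, 38 kept their sign under all 4 alternatives of scaling and feature choice (quantile normalization, cyclic loess, median centring, mean of a gene's features). The exceptions were day differences with citalopram, for Insr with its features averaged (0.08) and for Igf2 after quantile normalization (-0.03). Irs1 at day 3 was 0.45, short of 1.5-fold, with its features averaged, and its day 7 difference stayed between 1.07 and 1.16. Members at least 1.5-fold higher with citalopram at day 3 numbered 1 with averaged features and 1 after cyclic loess, where Igfbp5 fell just short. At a 2-fold threshold the number was 0 at day 3, and 0 higher and 0 lower between days with citalopram; Irs1 at day 7 alone passed.

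For the day effect, limma called 3 members after quantile normalization, 2 after cyclic loess and 2 with a floor at the 60th percentile, the last chosen after seeing the data; the cause was not tested. Over all genes, the 163 higher and 185 lower calls became 459 and 1085 after quantile normalization, 436 and 582 after cyclic loess, and 242 and 279 with median centring. They became 99 and 91 with no floor and 299 and 445 with the floor at the 60th percentile. Quantile normalization also moved the share of higher genes among those past 1.5-fold from 37.2% to 26.0% for citalopram at day 7, from 50.7% to 40.2% for day in control and from 41.6% to 25.7% for day with citalopram. At 2-fold, all-gene counts of higher and lower genes were 5 and 2 for citalopram at day 3, 6 and 4 at day 7, 32 and 16 for day in control, and 53 and 46 for day with citalopram. At 1.5-fold with the floor at the 60th percentile, citalopram at day 3 gave 34 and 20.

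Leaving out an array was not possible, since each group is 1 array and the additive fit would keep no residual degree of freedom. Signal near background limits Igf2, Igfbp2, Igfbp3 and the second Irs1 feature.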

Other observations

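Among the cell type markers, Lyz2, the gene of macrophage lysozyme, read 8.93 (control) and 9.50 (citalopram) at day 3, and 8.60 and 9.07 at day 7, differences of 0.57 and 0.47. The macrophage markers Adgre1, Csf1r, Ptprc, Aif1 and Tyrobp were below the floor on every array, and Cd68 was at -0.01 and 0.15. The chondrocyte gene Sox9 was higher with citalopram by 0.41 and 0.28, while Col2a1, the cartilage collagen, was at 0.51 and -0.22. Col9a1 (-0.15 and -0.06) and Col10a1 (-0.28 and -0.43) were lower at both days, but both were near or below the floor. Col9a1 lay between 6.14 and 6.30, and Col10a1 was below the floor at day 7 (5.86 in control and 5.43 with citalopram). Acan, Matn3 and Comp were below the floor on every array. These genes were picked after their values were seen, and none passed 1.5-fold for citalopram. Over days, limma called 3 of the cell type markers above the floor, where it called 1.31% of all genes higher and 1.49% lower. Those above the floor were 9 osteoblast, 4 chondrocyte, 4 myogenic, 2 adipocyte, 2 macrophage and 1 endothelial. Dmp1, an osteocyte matrix gene, was lower at day 7 (-1.46, SE 0.12, limma's adjusted p 0.00111). Col1a1, a chain of type I collagen (0.57, SE 0.11, limma's adjusted p 0.039), and Col2a1 (0.86, SE 0.16, limma's adjusted p 0.0397) were higher.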
